A study of Mus musculus with 19 samples.

Results

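The comparison described here is that of NIH3T3 cells, a long-established mouse fibroblast line, after 12 h of fibroblast growth factor with and without the MEK inhibitor U0126. It rests on 4 of the 19 expression arrays of the study. Of these, 2 arrays measured cells held for 12 h with FGF (the basic form, bFGF, at 50 ng/ml), and 2 measured cells given the same FGF with 20 µM U0126 added 0.5 h before it, at -0.5 h. In all groups the cells had first been held for 48 h in 0.1% serum, which makes them quiescent. The arrays were chosen by their labels alone, and each U0126 array was paired with the FGF array of the same experiment number, 1 or 2. All 14996 genes that passed a filter on low signal were tested. Beside this comparison stand 3 arrays of quiescent cells (1a and 1b from experiment 1, averaged for the test, and 1 array of experiment 2), the same treatments at 4 and 7 h of FGF (4 arrays at each time), and 1 array of cells that received U0126 at 7 h and were measured at 12 h. Whether each array came from its own culture is not stated, so p-values reflect only the spread between these arrays, which may be technical. The comparison covers 1 cell line and 1 inhibitor at 1 dose.

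FGF binds receptor tyrosine kinases on fibroblasts and activates the kinase cascade that runs from Ras through Raf and MEK to ERK. U0126 blocks MEK, which is the kinase that activates ERK. Active ERK is known to induce transcription factors and its own inhibitors early after a growth factor, and to raise cyclin D1, whose partner kinases phosphorylate the RB proteins and release E2F factors. E2F factors then turn on the genes of DNA replication as cells pass from G1 into S phase, and genes of G2 and mitosis follow. The question addressed by adding U0126 before FGF is which transcripts, 12 h later, depended on MEK activity.

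Signals are MAS5 intensities on a linear scale, scaled on every array to a mean of 500 after trimming. They cannot be compared between genes, because probes differ in affinity. The median signal was 70.5 and 85.4 on the FGF arrays of experiments 1 and 2 and 70.4 and 85 on the U0126 arrays, so the medians were alike within each experiment. Log2 signals of the replicates correlated across genes with r = 0.971 with FGF and r = 0.972 with U0126; genes are not independent replicates. Ratios of 3' to 5' probe sets were 0.698 to 0.8 for Gapdh and 1.16 to 1.47 for Actb over the 19 arrays. All 10 fibroblast markers looked at, such as Col1a1, Vim and Thy1, had mean signals above 500. Where pairs of signals are given below, experiment 1 comes first, and signals under 45.2, the 40th percentile of all values, are close to what the arrays give for transcripts at or near background. Differences are on the scale of log2(signal + 13.6), which understates the change of genes with low signal.

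U0126 changed 3095 of the 14996 genes at 12 h (20.6%) at an adjusted p under 0.05, of which 1361 (9.08% of all genes) were lower and 1734 (11.6%) were higher. Larger differences lay more often on the lower side: 510 genes were lower and 372 were higher by at least 2-fold, and 157 were lower and 49 were higher by at least 4-fold. The median difference over all genes was 0.05. Of the 3095 genes, 3094 differed in the same direction in both experiments, as did 69.1% of all genes. The 2 groups did not overlap for 1337 of the lower and 1697 of the higher genes, against 50.1% of all genes. A fit that ignored the pairing called 1808 genes, 869 lower and 939 higher. With 1 array left out the count fell most without replicate 2 of either group, to 2032 without that of FGF and 1880 without that of FGF with U0126. In the U0126 group 54 of the lower genes had a mean signal under 45.2, and 63 of the higher genes had such a mean in the FGF group, so the size of their difference is poorly known.

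**Figure D1:**
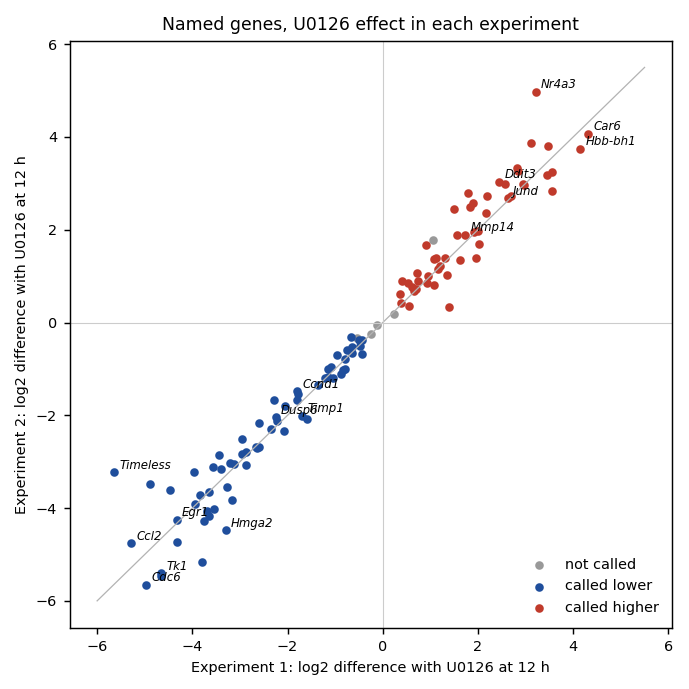
The log2 difference with U0126 at 12 h in experiment 1 (horizontal axis) and experiment 2 (vertical axis) for each gene named by the rule, coloured by its call; the grey diagonal marks equal differences. Called genes lie at the lower left or the upper right, with Cdc6 (-4.98 and -5.66), Ccl2 (-5.28 and -4.76) and Nr4a3 (3.21 and 4.97) among the farthest out.

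Feedback regulators and targets of ERK fell. Of 24 such genes tested, 19 were lower with U0126, none was higher in the limma fit, at an unadjusted p under 0.05 as well, and their median difference was -1.14 (0.05 over all genes). Dusp6, a phosphatase that inactivates ERK, had signals of 6719.7 and 6741 with FGF and 1405 and 1629.8 with U0126. Its quiescent signals were 907, 1263 and 1559.5, so the U0126 arrays lay in or near the quiescent range and well below both FGF arrays. The difference was -2.14 ± 0.14 (log2 ± SE; adjusted p = 3e-09). Fosl1, the AP-1 subunit Fra-1, gave 3285 and 2970.2 with FGF, 663 and 918 with U0126 and 276, 392 and 311 in quiescence. It fell by 1.98 on the log2 scale (adjusted p = 3.8e-07) but stayed above all quiescent arrays. Egr1, a zinc finger factor induced by growth factors, had signals of 1132 and 1404 with FGF, 43.4 and 60.7 with U0126 and 2889, 6135 and 8039 in quiescence. Here the order was different, since the quiescent arrays were the highest and the U0126 arrays the lowest, with a difference of -4.29 ± 0.21 (adjusted p = 1.3e-10). The chromatin protein Hmga2 fell from 12112 and 13005 to 1218 and 569.6, a difference of -3.89 ± 0.25 (adjusted p = 3e-09). Growth factors that act through the EGF receptor were among the lower genes. Ereg (epiregulin) fell from 5059 and 6243 to 469 and 686 and Hbegf from 1429 and 1903 to 693 and 592. Errfi1, an inhibitor of that receptor, fell from 2892 and 4311 to 674 and 841. The ETS factor Etv5 fell from 1439.8 and 1289 to 119.9 and 167, below its quiescent signals of 509, 414 and 545. Other feedback genes differed less: Spred1 by -1.0 and Spred2 by -0.62. The 5 members without a call were Spry4 (-0.43, adjusted p = 0.48), Spry2 (-0.30), Lif (-0.21), Etv4 (-0.11) and Spred3 (0.18).

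Immediate-early transcription factors, which growth factors and stress induce without new protein synthesis, changed in both directions. Of 21 tested, 4 were lower and 8 were higher, with a median of -0.09. Besides Egr1, Egr3 fell from 662 and 619 to 74 and 97.3, a difference of -2.73 ± 0.17 (adjusted p = 2.5e-09). Egr2 (-1.78) and Jun (-0.43) were the other lower members. Jund, an AP-1 subunit that can slow proliferation, had signals of 1699.6 and 1225 with FGF and 10620.3 and 7909 with U0126, against 11190.4, 8261 and 5348 in quiescence. The U0126 arrays lay within the quiescent range, and the difference was 2.66 ± 0.19 (adjusted p = 9e-09). The stress-induced factor Atf3 gave 61 and 43 with FGF, 636 and 806 with U0126 and 139, 139.8 and 139 in quiescence, so the U0126 arrays were above both other states. Its difference was 3.49 ± 0.21 (adjusted p = 1.6e-09). The orphan nuclear receptor Nr4a3 had 36.3 and 15.2 with FGF, which is near background, and 447 and 888 with U0126, with 135, 10.4 and 81.8 in quiescence. It rose by 4.09 ± 0.46 (adjusted p = 2.9e-06), and its relatives Nr4a1 (2.65) and Nr4a2 (1.05) rose too. Klf4 (0.98), Klf6 (0.70) and Fosl2 (0.93) made up the rest of the higher members. Myc, a factor that drives growth, had signals of 3277 and 3760.2 with FGF and 2769 and 3183 with U0126 and did not pass the test (-0.24 ± 0.13, adjusted p = 0.22). Fos had a difference of -0.09 (adjusted p = 0.91).

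In the G1 machinery, 7 of 10 cyclins, kinases and activators were lower and none was higher (median -1.25). Ccnd1, cyclin D1, had signals of 5976 and 5388 with FGF, 1706 and 1919 with U0126 and 1939.7, 2111 and 2502 in quiescence. It fell by 1.64 on the log2 scale (adjusted p = 9.4e-08), to just below the quiescent arrays. Ccnd2 (0.24, adjusted p = 0.1) and Ccnd3 (-0.28, adjusted p = 0.27) did not pass. Both E cyclins, which activate Cdk2 at the entry to S phase, differed more. Ccne1 had 1649.6 and 1155 with FGF, 178 and 127 with U0126 and 83.8, 105 and 164 in quiescence, a difference of -3.09 ± 0.27 (adjusted p = 1.3e-07). Ccne2 had 2686 and 1531, 78.1 and 125 and 171, 176 and 117 in the same order, a difference of -4.18 ± 0.29 (adjusted p = 6.8e-09). Skp2, the ubiquitin ligase subunit that targets p27 for degradation, fell from 4044 and 2973 to 960.3 and 852 (-1.92). Cdkn1b, which encodes p27, had 767 and 541 with FGF and 1262 and 1142 with U0126 and rose by 0.88 ± 0.21 (adjusted p = 0.0049). That call was lost without the pairing (adjusted p = 0.057) and without a variance trend (adjusted p = 0.073). It was also lost without replicate 2 of FGF (0.79) or of FGF with U0126 (0.77). Cdkn1a, which encodes p21, went from 3864 and 4292 to 5578 and 7780.0, a difference of 0.69 ± 0.12 (adjusted p = 0.00025, and 0.11 without the pairing). The Cdkn1a call was also lost with another probe set of the gene (0.5, adjusted p = 0.32). Of 6 CDK inhibitors tested, 1 was lower and 2 were higher with the pairing, and none was called without it. The lower one was lost with any 1 array left out, and 1 was higher without replicate 2 of either group.

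Of 12 E2F and RB family genes, 8 were lower and none was higher (median -1.29). The members called were E2f1, E2f2, E2f3, E2f7, E2f8, their partners Tfdp1 and Tfdp2, and the RB relative Rbl1. E2f8, a repressor that is itself an E2F target, had signals of 1143 and 874 with FGF, 32.2 and 6.4 with U0126 and 80.9, 86.5 and 77.3 in quiescence. The U0126 signals are at background, and the difference was -5.06 ± 0.43 (adjusted p = 8.7e-08). E2f7, its relative, fell from 1742 and 1361 to 178 and 154 and Rbl1 from 2513 and 1867 to 526 and 416. Rb1 (0.51, adjusted p = 0.085), E2f4 (-0.31), E2f5 (-0.01) and Rbl2 (0.01) did not pass the test.

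**Figure D2:**
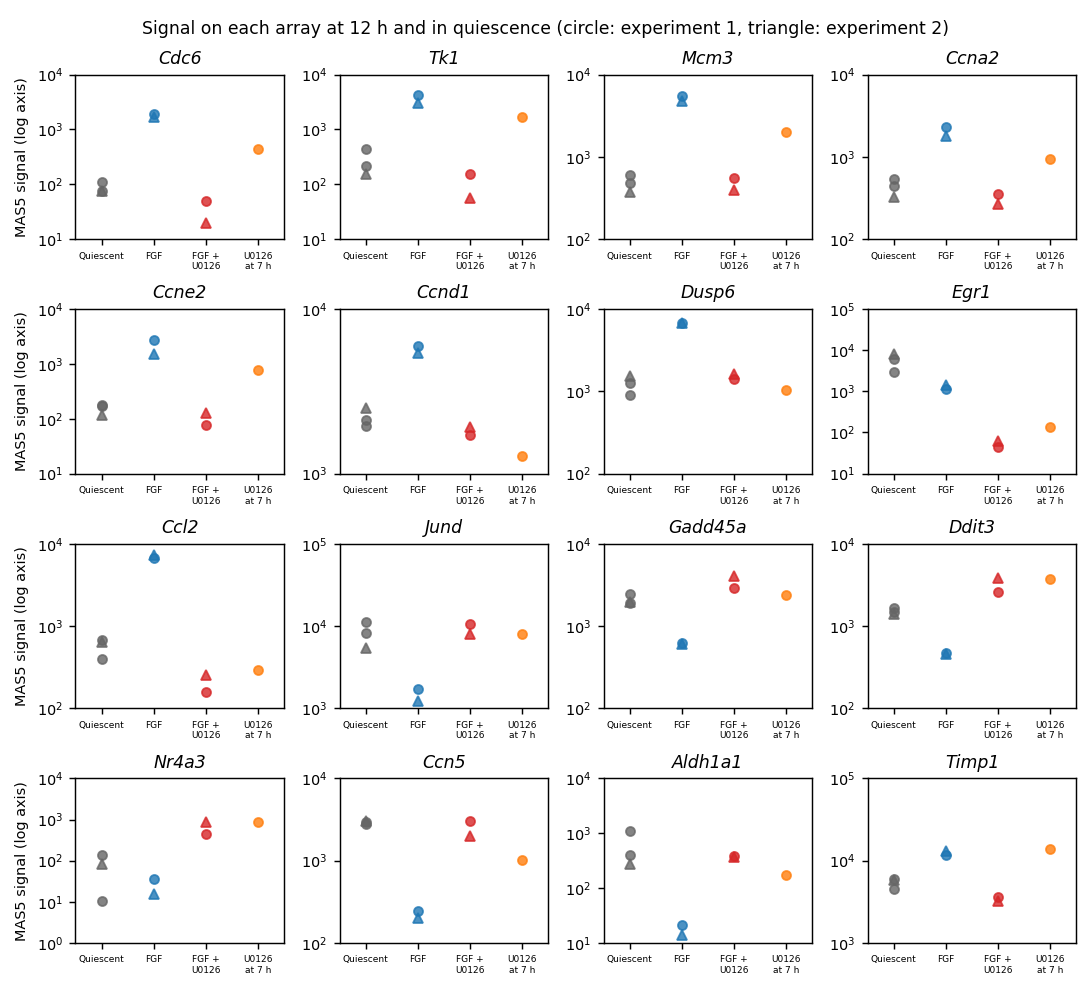
MAS5 signal (log axis) of 16 genes on each array of quiescent cells, of cells at 12 h of FGF, at 12 h of FGF with U0126 from -0.5 h, and at 12 h of FGF with U0126 added at 7 h (1 array); circles are experiment 1 and triangles experiment 2. The genes were picked for their described differences, and their FGF and U0126 arrays do not overlap (nor do those of 50.1% of all genes); Cdc6, Tk1, Mcm3, Ccna2, Ccne2, Ccnd1, Dusp6, Egr1, Ccl2 and Timp1 are lower with U0126 and the other 6 are higher.

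The lowest list medians were those of DNA replication genes. Of 24 genes of origin licensing and the MCM helicase, 21 were lower and none was higher, with a median of -2.03. Of 33 genes of the replication fork and of nucleotide synthesis, all 33 were lower, with a median of -2.21 and a range from -5.03 to -0.33. Of 20 genes of DNA repair and checkpoints, 17 were lower and none was higher, with a median of -1.49. Without the pairing 16 were lower, and 14 were with the probe set of highest variance. Fewer than 17 were called with any 1 of the 4 arrays left out, where the median ran from -1.72 to -1.40. Cdc6, which loads the MCM helicase at origins, had signals of 1938 and 1673 with FGF, 48.2 and 19.7 with U0126 and 74.9, 109.6 and 75.8 in quiescence. Its difference of -5.32 ± 0.39 (adjusted p = 1.6e-08) was the lowest of all named genes at this offset; with an offset of 1 it was -5.82, and that of E2f8, also near background with U0126, was -6.0. All 6 subunits of the MCM helicase were lower. Mcm3 had 5469 and 4733 with FGF, 553 and 392 with U0126 and 483, 603 and 374 in quiescence, and fell by 3.41 on the log2 scale (adjusted p = 1.2e-10). Mcm5 went from 7895 and 6836 to 569 and 339, a difference of -4.02 ± 0.16 (adjusted p = 2.3e-11). The differences of the other subunits were -1.86 (Mcm2), -2.67 (Mcm4), -3.82 (Mcm6) and -2.84 (Mcm7). For Cdc6 both U0126 arrays lay below every quiescent array, and those of Mcm3 lay within the quiescent range. The 3 members of the licensing list without a call were the origin recognition subunits Orc3 (0.28), Orc4 (0.14) and Orc5 (-0.38).

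Tk1, thymidine kinase, had signals of 4224 and 2974 with FGF, 156 and 56.7 with U0126 and 216, 446 and 152 in quiescence, a difference of -5.03 ± 0.24 (adjusted p = 1.2e-10). Rrm2, the regulated subunit of ribonucleotide reductase, fell from 10421 and 8195 to 886 and 494, with 892, 1041 and 616 in quiescence. Timeless, a fork protection protein, had 877 and 924 with FGF and 4.1 and 86.6 with U0126. Its lower U0126 signal is at background, so the size of the difference (-4.44 ± 0.46, adjusted p = 1.1e-06) rests partly on that array. Uhrf1, which brings the methyltransferase Dnmt1 to new DNA, fell from 2511 and 2279 to 149.7 and 139, and Dnmt1 from 2579 and 2353 to 499 and 603. The primase subunit Prim1 fell from 4243 and 3275 to 538 and 448. Pcna, the sliding clamp, differed less (-1.42), from 23001 and 26237 to 10010.3 and 8362. The smallest differences of the fork list were those of the single-strand binding subunits Rpa3 (-0.70) and Rpa1 (-0.33, adjusted p = 0.047), while Rpa2 of the same complex had -3.21. In the repair list Brca1 fell from 1115 and 817 to 58.9 and 74.9, Rad54l from 1515 and 1102 to 109 and 75.1 and the checkpoint kinase Chek1 from 1458 and 1140.3 to 232 and 242. Atr (0.10), Bard1 (-0.54) and Fanci (-1.21, adjusted p = 0.055) were the members that did not pass. Clspn, a checkpoint adaptor at the fork, had a difference of -3.91. Outside the lists, the 15 lowest genes of the comparison included Dscc1, part of the clamp loader that acts in sister chromatid cohesion (-4.53), and Esco2, a cohesin acetyltransferase (-3.88).

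Promoter windows of 300 bases, from 250 before to 50 after each annotated start, were taken from RefSeq (GRCm38.p6) for 11977 of the tested genes (15189 windows). They were searched on both strands for the E2F motif in 4 spellings (TTTGGCGC, TTTCGCGC, TTTCCCGC and TTTGCCGC). It was present in 3.48% of all windows, in 9.65% of the windows of lower genes and in 2.01% of those of higher genes. In the licensing list 10 of 24 windows held it (41.7%), in the fork list 9 of 36 (25%), in the repair list 5 of 20 (25%) and in the mitosis list 1 of 30 (3.33%). These windows came from 19, 29, 18 and 28 genes in that order. A gene with several annotated starts has several windows, some of which overlap, so windows are not counts of genes. These shares describe letters in a window and show no binding. The windows of Cdc6 (chr11:98907901-98908200, plus strand), Mcm3 (chr1:20820263-20820562, minus strand) and Mcm5 (chr8:75109259-75109558, plus strand) are shown because these licensing genes are among those described above and hold the motif, which is in capitals in either orientation. In Mcm5 a pair of matches on opposite strands overlap, and in Mcm3 both matches lie after the start.
Cdc6: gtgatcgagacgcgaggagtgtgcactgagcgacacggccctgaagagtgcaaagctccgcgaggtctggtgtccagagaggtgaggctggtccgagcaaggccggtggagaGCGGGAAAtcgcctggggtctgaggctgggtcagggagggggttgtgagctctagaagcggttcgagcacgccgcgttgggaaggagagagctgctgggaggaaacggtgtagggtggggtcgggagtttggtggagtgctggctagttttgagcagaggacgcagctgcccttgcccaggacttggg
Mcm3: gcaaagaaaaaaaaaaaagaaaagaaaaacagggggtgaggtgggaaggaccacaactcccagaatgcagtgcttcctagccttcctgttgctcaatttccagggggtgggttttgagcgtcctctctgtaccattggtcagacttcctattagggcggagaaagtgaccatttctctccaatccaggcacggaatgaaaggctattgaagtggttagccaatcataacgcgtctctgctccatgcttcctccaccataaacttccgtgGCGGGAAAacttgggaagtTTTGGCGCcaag
Mcm5: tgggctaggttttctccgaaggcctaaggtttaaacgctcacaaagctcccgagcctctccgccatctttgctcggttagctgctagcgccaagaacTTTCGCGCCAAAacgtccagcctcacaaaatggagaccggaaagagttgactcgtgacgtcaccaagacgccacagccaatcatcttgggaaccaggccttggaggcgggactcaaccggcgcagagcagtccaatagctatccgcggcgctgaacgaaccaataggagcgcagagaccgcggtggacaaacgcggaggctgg

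Genes of G2 and mitosis were also lower at 12 h. Of 34 tested, 31 were lower and none was higher, with a median of -2.0. Ccna2, cyclin A2, which acts in S phase and G2, had signals of 2304 and 1806 with FGF, 353 and 268 with U0126 and 435, 542 and 326 in quiescence. Its difference was -2.68 ± 0.19 (adjusted p = 1.1e-08), and the U0126 arrays lay within or below the quiescent range. Cdk1, the kinase of mitotic entry, had 5928 and 4400.4 with FGF, 1392 and 788 with U0126 and 923, 1303 and 722 in quiescence, a difference of -2.27 ± 0.16 (adjusted p = 1.1e-08). Birc5 (survivin) fell from 3138 and 2069.7 to 415 and 233, the spindle checkpoint gene Mad2l1 from 4574 and 3372 to 750.5 and 515, and the DNA topoisomerase Top2a from 4031 and 2895 to 785 and 581. The proliferation marker Mki67 fell from 2049 and 1921 to 346 and 167. The polo kinase gene Plk1 went from 328 and 487 to 161 and 151 (-1.29, adjusted p = 0.0038), and Ccnb2, cyclin B2, had 298 and 158 with FGF (-1.09, adjusted p = 0.014). Foxm1 (-0.94, adjusted p = 0.056), Pttg1 (-0.37) and Cdc25b (0.03) did not pass the test.

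The CHR motif, searched as TTTGAA and TTCGAA on both strands, was in 14.4% of all windows, 20.0% of those of lower genes, 13.0% of those of higher genes and 24 of 30 windows of the mitosis list (80.0%). In the licensing, fork and repair lists it was in 29.2%, 13.9% and 10.0%. The NF-Y motif CCAAT was in 37.3% of all windows, 43.2% of those of lower genes, 38.5% of those of higher genes and 83.3% of those of the mitosis list. High shares were not limited to that list. It was in 62.5%, 50.0% and 70.0% of the licensing, fork and repair windows and in 65.5% and 52.0% of the antiproliferative and ATF4 windows. The ERK target and ribosome lists had 42.1% and 24.3%. The windows of Cdk1 (chr10:69352863-69353162, minus strand), Ccnb2 (chr9:70421505-70421804, minus strand) and Cdca8, a subunit of the chromosomal passenger complex (chr4:124936868-124937167, minus strand), are shown as examples, with the CHR motif in capitals. Cdca8 fell from 2737 and 2346 to 670.1 and 459. Each of the 3 windows holds at least 1 match within 20 bases of the start.
Cdk1: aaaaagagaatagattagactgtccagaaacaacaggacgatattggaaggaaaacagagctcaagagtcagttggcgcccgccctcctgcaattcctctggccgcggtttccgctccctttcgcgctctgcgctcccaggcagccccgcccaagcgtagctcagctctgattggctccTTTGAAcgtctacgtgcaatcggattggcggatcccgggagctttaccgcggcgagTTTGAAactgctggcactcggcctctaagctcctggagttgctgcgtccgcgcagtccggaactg
Ccnb2: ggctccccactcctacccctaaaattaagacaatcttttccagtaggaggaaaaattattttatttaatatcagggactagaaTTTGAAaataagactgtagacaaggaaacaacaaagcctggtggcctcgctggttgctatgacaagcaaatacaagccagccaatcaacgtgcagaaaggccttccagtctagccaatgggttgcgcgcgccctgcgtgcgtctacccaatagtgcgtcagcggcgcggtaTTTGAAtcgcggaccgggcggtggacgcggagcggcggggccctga
Cdca8: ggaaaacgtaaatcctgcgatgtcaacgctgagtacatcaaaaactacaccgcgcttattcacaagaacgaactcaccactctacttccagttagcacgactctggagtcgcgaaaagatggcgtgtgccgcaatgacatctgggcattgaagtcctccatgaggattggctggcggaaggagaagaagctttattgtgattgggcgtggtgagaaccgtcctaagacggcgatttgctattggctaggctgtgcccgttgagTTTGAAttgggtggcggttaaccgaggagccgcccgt

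**Figure D3:**
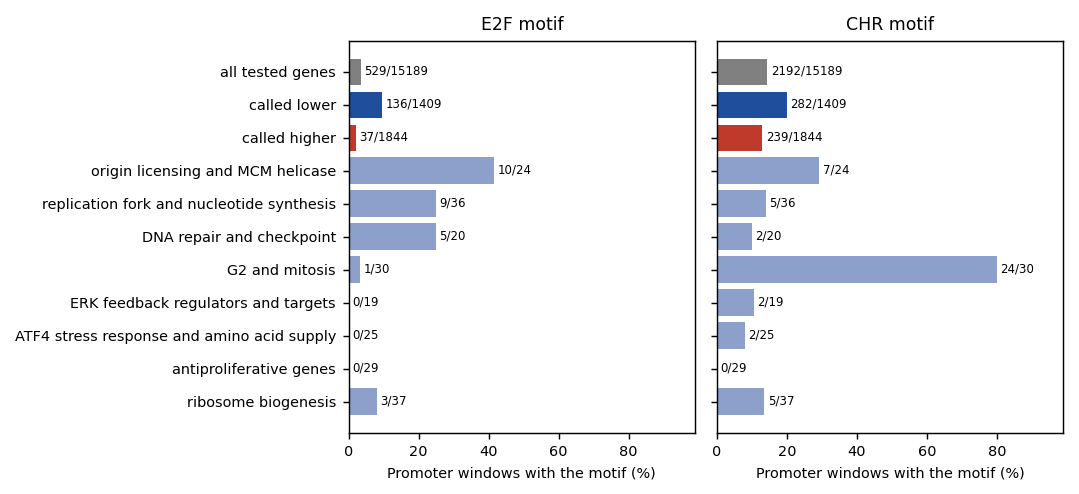
Share of RefSeq promoter windows (%) that hold the E2F motif (left) and the CHR motif (right), for all tested genes, genes lower or higher with U0126 at 12 h, and 8 gene lists; each bar is labelled with windows holding the motif over all windows of the set. The E2F share is highest in the licensing list (41.7%) and the CHR share in the mitosis list (80.0%).

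Genes known to restrain proliferation rose in part. Of 25 tested, 14 were higher and 1, Txnip, was lower (-0.80), with a median of 0.75. Without the pairing 11 were higher and none was lower, and the Txnip call was also lost without a variance trend and without replicate 2 of either group. Gadd45a, a growth arrest gene, had signals of 628 and 600.5 with FGF, 2942 and 4064 with U0126 and 2419, 1901 and 1941 in quiescence. The U0126 arrays lay above the quiescent range and the FGF arrays below it, and the difference was 2.47 ± 0.16 (adjusted p = 3e-09). Trp53inp1, a p53 target that promotes arrest and autophagy, had 593 and 589.8 with FGF, 1766 and 2219.6 with U0126 and 2756, 2489.5 and 2636 in quiescence (1.72). Tob1, an antiproliferative adaptor of mRNA deadenylation, rose from 3370.2 and 2577 to 6517 and 5198, a difference of 0.98 ± 0.13 (adjusted p = 1.4e-05). Klf9, a Krüppel-like factor, rose from 2847 and 2832 to 7039.7 and 7516, with 8453, 7700.2 and 6386 in quiescence. The growth arrest gene Gas1 rose from 7806 and 7707 to 12596 and 15270.0. Of 16 FOXO factors and targets, 5 were higher and 1 was lower (median 0.34), led by Pik3ip1, an inhibitor of PI3K, which rose from 374 and 367 to 1566 and 1226 with 1785, 3189.6 and 2058 in quiescence. Over the alternatives run, 2 to 7 genes of that list were higher (2 without FGF replicate 1), and the lower call, of Bcl2l11, was lost without the pairing and without replicate 1 of either group. Of 16 p53 targets, 7 were higher and 1 was lower (median 0.30; 4 higher and none lower without the pairing, and none lower without FGF replicate 1 or replicate 2 of FGF with U0126), with Plk2 rising from 4411 and 4356 to 9351 and 11306 and Mdm2 at -0.28 (adjusted p = 0.089). Some genes sit in more than 1 of these lists, such as Trp53inp1 and Ccng2. The FOXO motif GTAAACA was in 20.7% of the windows of the antiproliferative list (6 of 29) and in 2.85% of all windows. It was in 3.41% of the windows of lower genes and 2.39% of those of higher genes. In the other lists searched its share ran from 0.0% (fork list) to 10.5% (ERK targets, 2 of 19 windows).

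Genes of the ATF4 response, which cells use when protein folding or amino acid supply is disturbed, were higher: 16 of 26 rose and 2 fell, with a median of 0.47 (11 rose without the pairing). Ddit3 (CHOP), a stress-induced transcription factor, had signals of 468 and 462 with FGF, 2617 and 3872 with U0126 and 1646, 1499 and 1412 in quiescence. The U0126 arrays were the highest and the FGF arrays the lowest, with a difference of 2.74 ± 0.17 (adjusted p = 1.6e-09). Chac1, a glutathione-degrading enzyme, had 524 and 576, 2392 and 3037 and 430.0, 844 and 1324 in the same order (2.27, adjusted p = 1e-07). Trib3, a pseudokinase induced by CHOP, rose from 417 and 477 to 1596 and 2910.5, with 858, 829 and 950.4 in quiescence. Atf5 rose from 1435 and 1837 to 3219.8 and 4092 and the cystine transporter Slc7a11 from 254 and 415 to 899 and 925. Atf4 itself differed by 0.49 (adjusted p = 0.0031). The 2 lower members, Psat1 (-0.28) and Shmt2 (-0.43), were not called without the pairing or with any 1 array left out other than FGF replicate 2, which left 1 of them.

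Ribosome biogenesis genes were lower by small amounts. Of 38 tested, 18 were lower and none was higher, with a median of -0.43. Dkc1, the pseudouridine synthase of box H/ACA particles, had signals of 2599 and 2164 with FGF, 1116 and 944 with U0126 and 907, 534 and 471 in quiescence (-1.20 ± 0.15, adjusted p = 1.1e-05). Fbl (fibrillarin), the methyltransferase of box C/D particles, fell from 6453 and 7419 to 3617 and 3615, and its partner Nop58 from 3808 and 3583 to 2079 and 1653. For Dkc1 and Fbl both U0126 arrays lay above every quiescent array, and for Nop58 1 of the 2 did. The abundant nucleolar proteins Ncl (-0.14, adjusted p = 0.52) and Npm1 (0.0) did not pass the test. The ETS motif CCGGAAGT was in 24.3% of the windows of this list and in 6.62% of all windows. Its share was 7.67% for lower and 6.62% for higher genes. The fork, licensing and mitosis lists had 16.7%, 12.5% and 10.0%, and the repair, ATF4 and antiproliferative lists 5.0%, 4.0% and 3.45%. In the ERK target list 0 of 19 windows held it. Of 7 polyamine genes 2 were lower. Odc1, the first enzyme of polyamine synthesis, had 6933 and 6377 with FGF, 4410.4 and 4047 with U0126 and 1903, 2006 and 1728 in quiescence, so that it remained far above quiescence (-0.65 ± 0.10, adjusted p = 6.2e-05). Srm, spermidine synthase, went from 6547 and 6070.4 to 4715 and 4261 with 2131, 2629.7 and 2543 in quiescence. The Odc1 call was lost with another probe set of the gene (-0.27, adjusted p = 0.37), and the Srm call without replicate 2 of FGF with U0126 (adjusted p = 0.057). Of 20 cholesterol synthesis genes 2 were lower and none higher (median -0.10), and 1 was lower without the pairing. The count of 2 is near the share of all genes called lower, 9.08%. With 1 array left out the median ran from -0.20 (without replicate 1 of FGF with U0126) to 0.02 (without its replicate 2). Dhcr7, the last enzyme of the pathway, fell from 2308 and 1564 to 1329.9 and 776. Of 15 glycolysis genes 1, Pfkp, was higher (0.49, adjusted p = 0.013), beside 11.6% of all genes. It was not called without the pairing, without a variance trend or without replicate 2 of either group. Another probe set of Pfkp was not called either (0.24, adjusted p = 0.78). Of 9 reference genes 1, B2m, was called (0.41, not called without the pairing), and Actb had a difference of -0.04.

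In the extracellular matrix list 10 of 33 genes were higher and 3 were lower (median 0.17; 6 and 2 without the pairing, 6 and 3 without replicate 2 of FGF with U0126). Over all genes 11.6% were called higher and 9.08% lower, so the 3 lower genes were near the overall share. Col8a1, a short-chain collagen, had signals of 1868 and 1915 with FGF, 724 and 748 with U0126 and 2292, 2349 and 2035 in quiescence. Its U0126 arrays were below both other states, with a difference of -1.35 ± 0.15 (adjusted p = 2.1e-06). Lamb1, a laminin chain, fell from 5266 and 6464 to 3157 and 3525. Thbs2, thrombospondin 2, rose from 2034 and 2609 to 3419 and 4835, and the proteoglycan Ogn rose from 869.6 and 1028 to 2216 and 2098, against 10489, 10362 and 7438 in quiescence. Of 14 matrix proteases and inhibitors tested 2 were lower and 5 higher (median 0.32). Timp1, an inhibitor of matrix metalloproteases, had 11588 and 12977 with FGF, 3588 and 3209 with U0126 and 4548, 5993 and 5757 in quiescence (-1.85 ± 0.12, adjusted p = 3.3e-09). The membrane protease Mmp14 had 2953 and 2291, 9859 and 8529 and 6171, 6143 and 5875 in the same order, so its U0126 arrays were above both other states (1.81 ± 0.12, adjusted p = 3.8e-09). Mmp11 rose from 214 and 132 to 777 and 994 and Mmp2 from 6569.7 and 4930.1 to 10529.8 and 9852. Of 17 growth factor receptors 5 were lower and 2 higher (median -0.06, with 3 and 1 called without the pairing). The count of 2 higher receptors is near the 11.6% of all genes called higher. Without replicate 2 of either group none was higher, and without replicate 1 of FGF 1 was; without replicate 1 of FGF with U0126 3 were lower and 3 higher. Pdgfra, a PDGF receptor, had 5126 and 6468 with FGF, 2403 and 3334 with U0126 and 11720.5, 11101 and 9571 in quiescence, which put the U0126 arrays lowest of the 3 states. Fgfr1, the main FGF receptor of fibroblasts, had a difference of -0.10 (adjusted p = 0.7). Of 19 actin and SRF target genes 3 were lower and 1, Ccn1, was higher, a call lost without the pairing and with any 1 of the 4 arrays left out; the matrix protein gene Ccn2 fell from 2008 and 1269 to 575 and 425.

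Chemokines included some of the largest differences. Of 13 chemokines and cytokines tested, 6 were lower and 1, Il6, was higher (median -0.62). Ccl2, which attracts monocytes, had signals of 6725 and 7318 with FGF, 159.6 and 256 with U0126 and 399, 671 and 646 in quiescence. Both U0126 arrays lay below every quiescent array, with a difference of -5.02 ± 0.20 (adjusted p = 2.3e-11). The related chemokine Ccl7 fell from 2850.0 and 4441 to 228 and 503, with 891, 1338 and 1373 in quiescence. Tslp, a cytokine best known from epithelial cells, fell from 561 and 884 to 50.7 and 49.6. Il6 had 0.9 and 36.6 with FGF, at background, and 69 and 145 with U0126 (2.09, adjusted p = 0.0067), a call lost without FGF replicate 1 and without replicate 2 of FGF with U0126. Of 18 interferon response and antigen presentation genes, 6 were higher and none was lower (median 0.40; 4 without the pairing, 3 without replicate 1 of FGF with U0126). Ifit3 had 128 and 132 with FGF, 519 and 552 with U0126 and 709.9, 746 and 598 in quiescence (1.94 ± 0.18, adjusted p = 2.2e-07). The GTPase Gbp2 rose from 95.4 and 62.3 to 191 and 229, well below its quiescent signals of 905, 919.6 and 848. Of 16 clock genes 8 were higher and none was lower (median 0.59). The count was 4 without the pairing, 3 without a variance trend, 5 without FGF replicate 2 and 3 without replicate 2 of FGF with U0126. Nfil3, a bZIP repressor, had 449 and 298 with FGF, 1281 and 1688 with U0126 and 349, 359 and 422 in quiescence (1.97 ± 0.20, adjusted p = 1.1e-06). Dbp, a bZIP activator driven by the clock, rose from 138 and 139.8 to 284 and 292, far below its quiescent signals of 1812, 2486 and 1430.3.

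Several of the 15 largest increases were in genes outside the lists. Car6, a carbonic anhydrase, had signals of 212 and 349.5 with FGF, 4496 and 6085 with U0126 and 553, 614 and 1256 in quiescence (4.19 ± 0.19, adjusted p = 6.7e-11). The embryonic globin gene Hbb-bh1 had 45.5 and 53.3, 1033 and 888 and 56.6, 32.4 and 61.1 in the same order (3.95 ± 0.27, adjusted p = 6.5e-09). For both genes the U0126 arrays lay above every quiescent array. Mef2c, a transcription factor of muscle and neurons, had 214 and 229 with FGF, 1464 and 1586 with U0126 and 318, 394 and 209 in quiescence (2.71, adjusted p = 1.9e-08). Ccn5, a matricellular protein that lacks a domain its relatives share, had 245 and 199.9, 3045 and 1998 and 2934, 2833 and 2999, so that U0126 arrays were near quiescence and FGF arrays far below. Sox6 showed the same order, with 38.4 and 59.7, 390.2 and 562 and 442, 382 and 535. Aldh1a1, a retinaldehyde dehydrogenase, had 21.5 and 14.1 with FGF, at background, and 377 and 371 with U0126 (3.64 ± 0.27, adjusted p = 1.6e-08). Others among the 15 highest whose FGF signal was at background were Adgrd1 (3.31), Hdac9 (3.19), Klhl30 (3.08) and the activity-dependent factor Npas4 (3.06). Hdac9 was not called in the fit with an offset of 1 in place of 13.6 (2.17, adjusted p = 0.13). A smaller offset enlarges the difference of a given probe set, so that fit used another probe set of Hdac9. The lost call thus reflects the probe set. Cdsn (2.97), an adhesion protein of the epidermis, and Serpinb1a (2.78), an inhibitor of neutrophil proteases, completed the group. Of the 15 lowest genes, those not yet described were Lrr1 (-4.48), a subunit of a ubiquitin ligase, and the receptor Gpr149, which fell from 1749.9 and 2272 to 65.9 and 174 (-4.04). With an offset of 1 Lrr1 was not among the 15 lowest named genes, which ended with Hmga2 (-3.91). Its fall was thus smaller there, on another probe set of the gene.

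**Figure D4:**
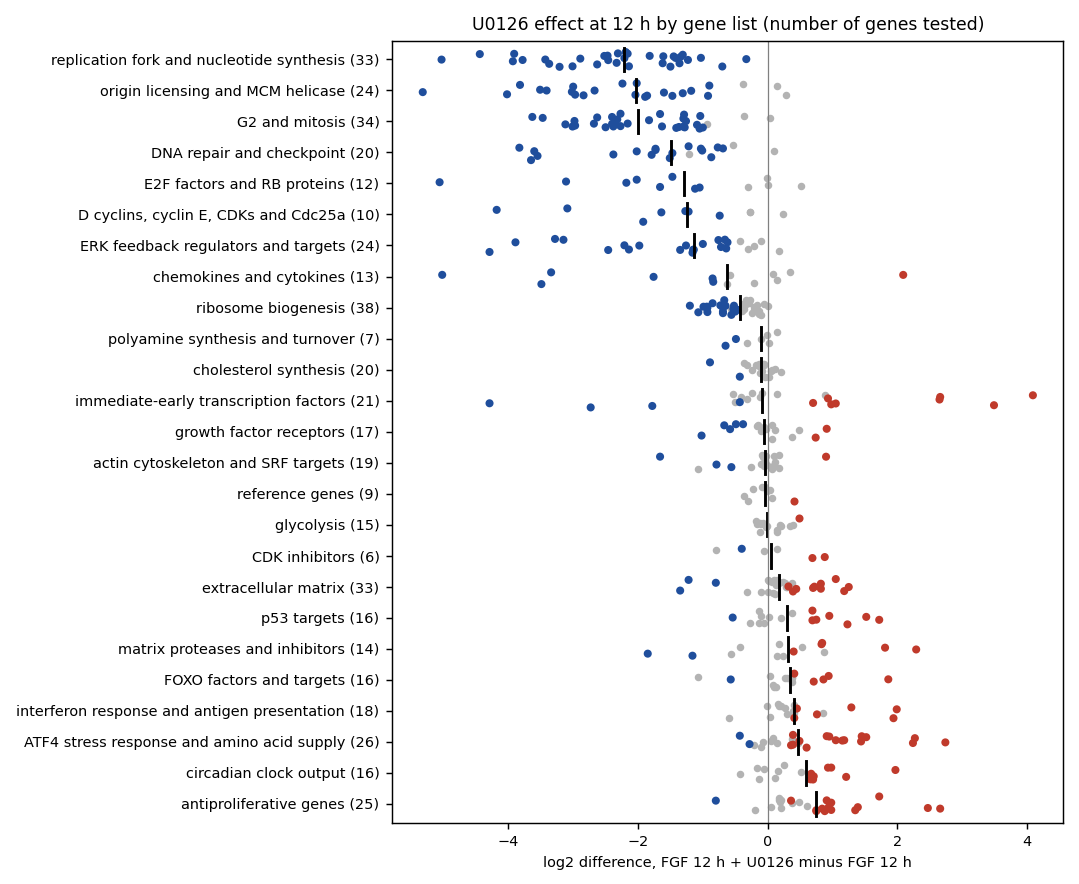
The log2 difference between FGF 12 h with U0126 and FGF 12 h (horizontal axis) for each tested gene of 25 lists, with lists ordered by their median (black bars); blue genes were called lower, red ones higher and grey ones were not called. The medians run from -2.21 for the replication fork list to 0.75 for the antiproliferative list, and the fork list is the only one in which all tested genes were called in 1 direction.

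The U0126 effect at 12 h was set against that at 4 h and at 7 h of FGF by a test of the difference of the effects. It differed from the effect at 4 h for 780 genes (5.2%), of which 440 (2.93%) were more negative and 340 (2.27%) more positive at 12 h. It differed from the effect at 7 h for 210 genes (1.40%), 156 (1.04%) more negative and 54 (0.36%) more positive. Without the pairing these counts were 269 and 14, so the second rests on the pairing. The 7 h comparison also fell to 32 genes without a variance trend. The 4, 7 and 12 h effects share no arrays.

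Replication genes had more negative effects at 12 h than before. Of the 33 fork genes, 32 had a more negative effect at 12 h than at 4 h and 20 than at 7 h, and the median effect was -0.34 at 4 h, -0.92 at 7 h and -2.21 at 12 h. Of 24 licensing genes the counts were 19 and 9 (medians -0.27, -1.36 and -2.03), of 20 repair genes 13 and 5 (-0.10, -0.95 and -1.49) and of 34 mitotic genes 17 and 11 (-0.40, -0.60 and -2.0). For the 24 ERK targets the counts were 0 and 0 in the limma fit (7 and 2 at an unadjusted p under 0.05, either direction), and the medians were -1.32, -1.0 and -1.14. Tk1 had signals of 310.2 and 166 with FGF at 4 h and 174 and 75.4 with U0126, then 423 and 391 and 106 and 65.1 at 7 h, before the 4224 and 2974 and 156 and 56.7 of 12 h. The U0126 arrays thus stayed low at every time while the FGF arrays were higher at 12 h. Its effect differed by -4.12 ± 0.34 between 12 and 4 h (adjusted p = 8.1e-07) and by -2.91 ± 0.34 between 12 and 7 h (adjusted p = 0.00022, a call lost without the pairing). Ccne2 (-3.64), Dscc1 (-4.44) and Kntc1, a kinetochore protein (-4.31), also had more negative effects at 12 h than at 4 h. Dusp6, in contrast, had 9314 and 8316 with FGF and 1319.6 and 1292 with U0126 at 4 h, and its effect at 12 h differed from that at 4 h by 0.60 ± 0.19 (adjusted p = 0.085). Ccnd1 had effects of -1.93, -2.09 and -1.64 at 4, 7 and 12 h, and the difference between 12 and 4 h was 0.29 ± 0.20 (adjusted p = 0.52). Egr1 had effects of -3.61, -4.26 and -4.29.

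Genes whose effect was more positive at 12 h included Aldh1a1, with 293 and 221 and 321 and 262 at 4 h. Its FGF signal at 12 h was lower than at 4 h while its U0126 signal was not, and the effect differed by 3.46 ± 0.38 (adjusted p = 1.6e-05). Serpinb1a had 763 and 606 with FGF and 705 and 608 with U0126 at 4 h, and a difference of 2.83 (adjusted p = 1.7e-05). Tgfb3, a TGF-beta ligand, had 1329 and 1152 and 788 and 731 at 4 h, 862 and 946 and 871 and 927 at 7 h, and 535 and 567 and 1669 and 1453 at 12 h. It was thus lower with U0126 at 4 h, about equal at 7 h and higher at 12 h, and the effects differed between 12 and 7 h by 1.48 ± 0.19 (adjusted p = 0.00043). Itgb3, an integrin subunit, had effects of -2.18 at 4 h, -1.37 at 7 h and 0.21 at 12 h. Arhgap27 had a 12 h minus 7 h difference of -3.17 (adjusted p = 0.00053), with an effect of 2.72 at 7 h beside -0.45 (adjusted p = 0.35) at 12 h. In the ATF4 list 9 of 26 genes had a less positive effect at 12 h than at 4 h and 1 a more positive one, with medians of 1.08, 0.76 and 0.47. Ddit3 had signals of 1000.0 and 1047 and 10538 and 8114 at 4 h, higher with U0126 than the 2617 and 3872 of 12 h; its effects were 3.16, 3.0 and 2.74.

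**Figure D5:**
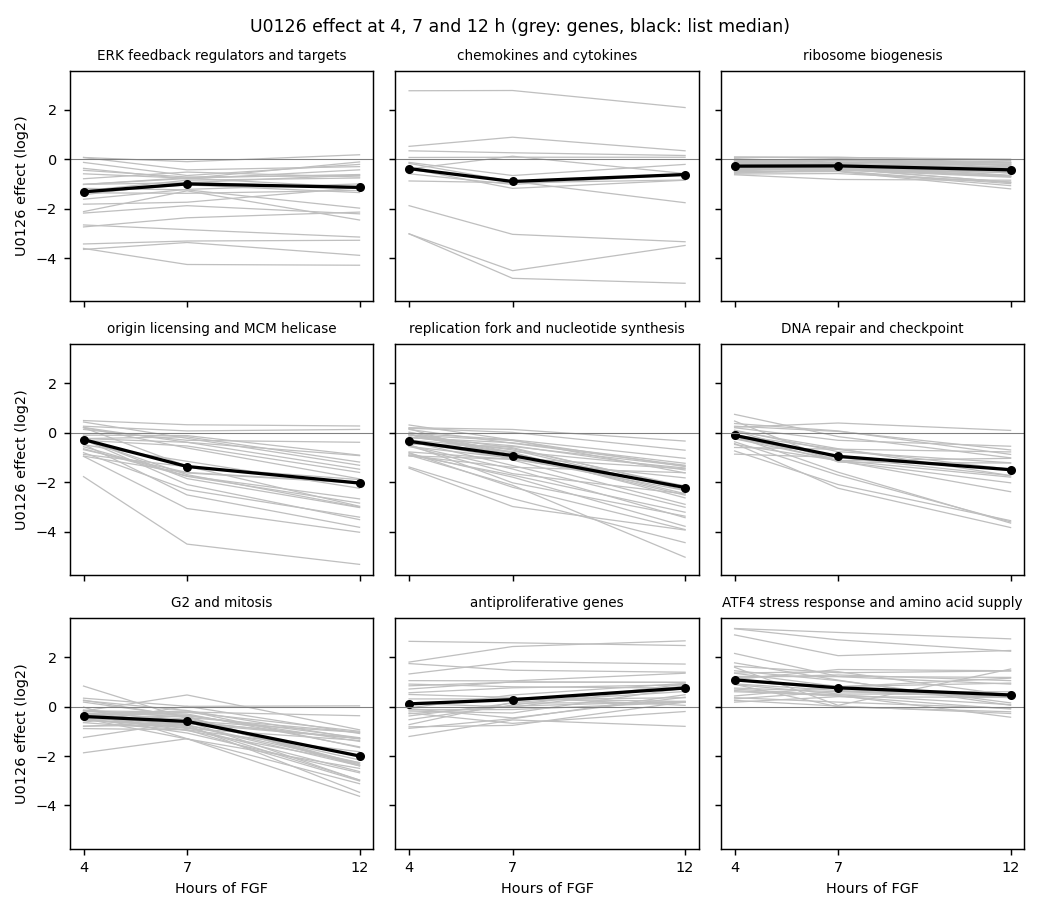
The U0126 effect (log2 difference between FGF with and without U0126) at 4, 7 and 12 h of FGF for the genes of 9 lists (grey lines) and their median (black). The median of the fork list goes from -0.34 at 4 h to -2.21 at 12 h, while that of the ERK targets is -1.32 and -1.14.

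The U0126 arrays at 12 h were also set against quiescent cells, a comparison that shares the U0126 arrays with the one above. At an adjusted p under 0.05, 2160 genes differed (14.4%), 960 higher (6.4%) and 1200 lower (8.0%). Without the pairing 813 genes differed, and the count was 987 without quiescent replicate 2. With both comparisons side by side, Cdc6 was -5.32 against FGF and -1.09 (adjusted p = 0.075) against quiescence. Mcm3 was -3.41 and 0.05 (adjusted p = 0.9), Ccna2 -2.68 and -0.36 (adjusted p = 0.26), and Ccnd1 -1.64 and -0.31 (adjusted p = 0.16). Fosl1 stayed above quiescence, with -1.98 and 1.25 (adjusted p = 0.00017), as did Odc1 with -0.65 and 1.20 (adjusted p = 2.6e-07). Egr1 was below quiescence, with -4.29 and -6.49 (adjusted p = 1.7e-12). Among higher genes, Jund was 2.66 against FGF and 0.35 (adjusted p = 0.25) against quiescence, and Ccn5 was 3.40 and -0.25 (adjusted p = 0.39). Ddit3 was 2.74 and 1.09 (adjusted p = 0.00018), Hbb-bh1 3.95 and 3.90 (adjusted p = 5.3e-08), and Mef2c 2.71 and 2.42 (adjusted p = 3.4e-07). The median of the cholesterol synthesis list was -0.10 against FGF and 0.90 against quiescence, and that of the ribosome list was -0.43 and 0.34.

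On the single array of cells given U0126 at 7 h and measured at 12 h, values are set beside the early addition in experiment 1, which shares the FGF array; no test was run. The list medians were -1.02 with the late and -2.27 with the early addition for the fork list, -0.84 and -1.70 for the mitosis list, -1.40 and -1.07 for the ERK targets, and 0.88 and 0.41 for the ATF4 list. Cdc6 had a signal of 430.5 with late U0126 (-2.14 late, -4.98 early), Ccl2 288 (-4.48 and -5.28), Kntc1 1044 (-0.43 and -3.84) and Timp1 13839 (0.26 and -1.69).

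Markers of other cell types were mostly near background. None of the 4 macrophage, 4 endothelial and 4 muscle markers tested was called by limma (1, 0 and 0 at an unadjusted p under 0.05). Signals were summed over the tested markers only. With FGF and with U0126 the sums were 1352 to 1527 and 1206 to 1256 for the 4 macrophage markers. They were 112 to 251 and 121 to 167 for the 4 endothelial markers, and 207 to 316 and 180 to 246 for the 4 muscle markers. Most of the macrophage sum came from Cd14 (1066 and 1176 with FGF). Of 7 epithelial markers 1 was called, Krt14, with 964 and 915 with FGF, 2784 and 2999 with U0126 and 1871, 2976 and 3130.4 in quiescence. It carried most of the rise of the summed signal from 1343 to 1506 up to 3285 to 3604. Cdh1, Krt18 and Krt19 were at most 70.9 on all 4 arrays. Of the 7 epithelial markers 2 had a mean signal above 74.0, the median of all values. The 1 beside Krt14 was among Epcam, Krt8 and Cldn4. Of 2 adipocyte markers tested Lpl was called, with 7603 and 9646 with FGF, 17613 and 22332 with U0126 and 18929, 16685 and 14992 in quiescence. Fabp4 was at most 40.1, and Adipoq and Pparg did not pass the filter on low signal. The part of other cell types in the results was not tested.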

How the data were processed

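RNA from NIH3T3 cells was hybridised to Affymetrix mouse expression arrays, 1 array per sample (19 arrays). The deposited values are MAS5 signal intensity on a linear scale, which the authors scaled to a trimmed mean of 500, per the labels; leaving out 2% of values at each end gave 500 on every array. The MAS5 version was not given in the sources used here. Among the 45101 probe sets, 34945 had 1 gene in the platform annotation, 932 several and 9160 none; the last 2 kinds were left out, as were 64 controls.

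An offset of 13.6 (the 20th percentile over all arrays) was added before log2. A probe set was kept if it exceeded its array's 40th percentile on 2 or more arrays, and the one with the highest mean stood for each of 14996 genes; 7114 genes had more than 1. All 11 groups were fitted together in limma 3.58.1 (R 4.3.3; eBayes with a variance trend), with the experiment as a block, since the comparison is defined as paired by experiment number. Same-numbered samples deviated together in all 21 pairs of groups (r 0.124 to 0.304). Replicates 1a and 1b of quiescence were averaged, giving 18 columns and 6 residual degrees of freedom. Tests were two-sided, with Benjamini-Hochberg adjustment over all genes and 0.05 as the limit. The small number of arrays limits precision.

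The comparison and the 25 gene lists and 6 marker lists were chosen with earlier results of these data known. Genes named by rule were the 15 largest differences each way among called genes that agreed in direction in both experiments and exceeded the median signal in 1 group, 5 each way for the differences between times, up to 4 called members of each list by p-value, and 13 fixed genes; other list members printed were picked after their values were seen. Promoter windows came from RefSeq; motifs were counted without a test. Alternatives were other scalings (quantile, 75th percentile), offsets (1 and 45.2, the 40th percentile), filters (none; the median on 4 arrays), probe sets (highest variance; all), variance models, 3 separate quiescent arrays, no block, only the compared groups, and leaving out each replicate. The workflow was tested on simulated data. Figures were drawn with matplotlib 3.10.9.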

Additional observations from a re-analysis of the deposited data

Results flagged for a closer look

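Several results were marked because the U0126 effect differed between times of FGF by a test of the difference itself (limma, with the experiment block). Against the effect at 4 h, 780 genes differed at 12 h. The most negative differences named were those of Dscc1 (-4.44), Kntc1 (-4.31), Tk1 (-4.12), Esco2 (-3.67) and Ccne2 (-3.64). The most positive were those of Aldh1a1 (3.46), the unnamed transcript 4930486L24Rik (3.06), Tfpi (2.96), Gsta2 (2.90) and Serpinb1a (2.83). Signals of 4930486L24Rik, Tfpi and Gsta2 were low (FGF at 12 h gave 12 and 4.3, 50.9 and 16.6 and 43.7 and 45.5), and their calls were lost under at least 1 alternative.

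Against the effect at 7 h, 210 genes differed. The most negative differences were those of Kntc1 (-3.23), Arhgap27 (-3.17), Esco2 (-2.98), Tk1 (-2.91) and E2f8 (-2.78), and the most positive those of Aldh1a1 (2.69), Cdsn (1.87), Itgb3 (1.58), the predicted gene Gm15867 (1.54) and Tgfb3 (1.48). Of these 10 genes only Arhgap27 and Tgfb3 stayed called under every alternative run, and the other 8 were not called without the block. Gm15867 had signals of 218 and 134 with FGF and 198 and 129 with U0126 at 12 h and 415 and 365 and 112 and 120.4 at 7 h.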

How the results depend on the processing

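No named gene reversed its call for the effect at 12 h or its differences from 4 and 7 h under any alternative run. No scaling moved the split between higher and lower genes by over 10 percentage points or the median of all genes by over 0.1. Other alternatives moved the split more. The lower share for 12 h minus 4 h was 56.4%, but 69.7% without a variance trend and 71.4% without the block. For 12 h minus 7 h it was 74.3%, and 85.7% without the block. Leaving out 1 U0126 array of 7 h moved that share by over 10 percentage points in either direction. It went down without replicate 2 and up without replicate 1. Against quiescence the majority changed sides, from 55.6% lower to 47.6%, when each gene's most variable probe set was used. The fit with no replicate block, which ignores the pairing, called 1808 genes for the U0126 effect at 12 h (3095 with it), 269 for 12 h minus 4 h (780), 14 for 12 h minus 7 h (210) and 813 against quiescence (2160). With all probe sets counted singly, 4969 were called for the effect at 12 h and 3335 against quiescence. Without a variance trend the counts were 327 for 12 h minus 4 h, 32 for 12 h minus 7 h and 1076 against quiescence. With the probe set of highest variance they were 507, 120 and 1383. Leaving out each replicate gave 1880 to 2201 genes for the effect at 12 h, with FGF 12 h replicate 2 (2032) and FGF with U0126 replicate 2 (1880) moving it by over 1.5 times. The same gave 486 to 608 for 12 h minus 4 h (514 and 492 without U0126 replicates 1 and 2 of 12 h, 486 without FGF 4 h replicate 1, 519 without U0126 replicate 2 of 4 h), 117 to 180 for 12 h minus 7 h (below 140 without any 12 h array, without FGF 7 h replicate 1 or without U0126 replicate 1 of 7 h) and 987 to 2271 against quiescence (1170 and 1089 without U0126 replicates 1 and 2, 987 without quiescent replicate 2). A group left with 1 array was assumed to vary like the others. Of 114 named genes called for the effect at 12 h, 93 kept the call in every alternative; 21 lost it in at least 1, among them 13 without the block and 15 when a replicate was left out. Genes with signals under 45.2 in 1 group have differences of uncertain size.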
